A study of Mus musculus with 8 samples.

Results

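The 10 collagen crosslinking and modifying enzyme genes followed here are *Lox*, *Loxl1*, *Loxl2*, *Loxl3*, *Plod1*, *Plod2*, *Plod3*, *P4ha1*, *Bmp1*, and *Pcolce*, chosen by symbol as lysyl oxidases, lysyl hydroxylases, and procollagen modifying or processing genes. Each matched 1 row of the 16994 genes in the count table, and all 10 were among the 12999 genes tested, whose mean level reached 1 CPM (counts per 1000000). RNA came from hearts of male WT mice and of mice with whole-body TIGAR knockout (TKO), a line described in earlier work, whose strain background is not given in the sources used here. The regions were the infarct, border, and remote zones after permanent ligation of the left anterior descending coronary artery at 16 weeks of age, and left ventricle tissue, for which operation or sham surgery is not given in the sources used here. Heart function was followed to 4 weeks after ligation, and the time at which RNA was taken is not given in the sources used here. There was 1 library per genotype and region, 8 in all, with RNA of 3 mice pooled for each infarct zone library. Pooling in the other regions, and whether regions came from the same hearts, are not given in the sources used here.

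Collagen is made as procollagen in the endoplasmic reticulum, where prolyl 4-hydroxylases such as the α subunit encoded by *P4ha1* stabilize the triple helix and lysyl hydroxylases (*Plod1*, *Plod2*, *Plod3*) prepare lysines for glycosylation and crosslinking. Outside the cell, the metalloproteinase encoded by *Bmp1* removes the C-propeptide, the enhancer encoded by *Pcolce* speeds that step, and lysyl oxidases (*Lox* and the *Loxl* genes) oxidize lysines of collagen and elastin so that fibers become crosslinked. After infarction, fibroblasts lay down a collagen scar, and crosslinking makes it stiffer and harder to degrade.

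Promoter sequences from RefSeq on GRCm38.p6 covered 4 of the 10 genes, and they are shown because 2 of these genes (*Plod3*, *Pcolce*) were higher in the infarct zone and 2 (*Plod1*, *P4ha1*) were not. Each is the 250 bases before the transcript start that RefSeq gives, 5′ to 3′ on the gene's strand, at chr4:147936777-147937026 (minus) for *Plod1*, chr5:136986769-136987018 (plus) for *Plod3*, chr10:59323046-59323295 (plus) for *P4ha1*, and chr5:137611405-137611654 (minus) for *Pcolce*, whose RefSeq start lies inside the longer gene span of the GRCm38 annotation given further on. Capitals mark the core of the hypoxia response element, ACGTG or GCGTG, on either strand.
Plod1: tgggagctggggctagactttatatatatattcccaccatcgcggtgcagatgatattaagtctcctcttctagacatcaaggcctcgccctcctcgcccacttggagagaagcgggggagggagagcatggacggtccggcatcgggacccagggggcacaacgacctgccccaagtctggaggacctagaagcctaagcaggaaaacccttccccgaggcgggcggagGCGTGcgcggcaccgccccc
Plod3: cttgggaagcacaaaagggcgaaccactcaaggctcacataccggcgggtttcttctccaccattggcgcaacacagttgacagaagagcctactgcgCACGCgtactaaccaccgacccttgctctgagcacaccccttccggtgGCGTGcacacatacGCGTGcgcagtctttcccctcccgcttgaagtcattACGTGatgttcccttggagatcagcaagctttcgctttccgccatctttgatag
P4ha1: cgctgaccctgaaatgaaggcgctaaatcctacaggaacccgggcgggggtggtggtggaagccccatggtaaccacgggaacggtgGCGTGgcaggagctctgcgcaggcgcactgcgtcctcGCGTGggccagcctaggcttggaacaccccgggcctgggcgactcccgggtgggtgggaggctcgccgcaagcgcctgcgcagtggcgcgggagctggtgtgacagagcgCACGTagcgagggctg
Pcolce: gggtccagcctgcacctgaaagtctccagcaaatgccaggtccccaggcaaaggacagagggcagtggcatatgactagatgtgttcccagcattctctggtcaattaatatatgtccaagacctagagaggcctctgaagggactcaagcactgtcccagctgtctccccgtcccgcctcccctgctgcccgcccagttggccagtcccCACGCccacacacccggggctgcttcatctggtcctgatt
The core occurred 1 time for *Plod1*, 4 times for *Plod3*, 3 times for *P4ha1*, and 1 time for *Pcolce*, and it was present in 38.6% of 32851 RefSeq promoters cut the same way. The SMAD element CAGAC was found for *Plod1* of the 4 and in 42.2% of all promoters, on either strand. The TATA box letters TATAAA were found for *Plod1* of the 4 and in 12.4% of all promoters, on either strand. For *Plod1* these letters lay on the opposite strand, near the 5′ end of the 250 bases, so a working TATA box is not shown. None of these motifs separated the genes that were higher in the infarct zone from those that were not.

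Libraries held 27429240 to 33799249 estimated counts. Mitochondrial DNA–encoded genes took 20.7% of counts in the WT and 27.9% in the TKO infarct zone library, and 36.6% to 39.3% in the others. Levels are CPM after scaling by edgeR's TMM method, whose factors were 1.54 and 1.26 for the WT and TKO infarct zone libraries and 0.866 to 0.956 elsewhere. Without TMM the median of all genes in the infarct zone against left ventricle contrast moved from 0.02 to 0.71 on the log2 scale, so zone differences are relative to the median gene. *Tigar*, the targeted gene, had 1066 to 2215 counts in WT and 51 to 87 counts in TKO libraries, matching the labels. Its TKO level was 0.0275 of WT in the left ventricle and 0.044, 0.037, and 0.0966 of WT in the remote, border, and infarct zone. Markers of cardiomyocytes were present in every library, with 8 of 8 above 0.

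Of the 10 genes, *Lox* had the widest range over the 8 libraries. *Lox* (ENSMUSG00000024529, chromosome 18 from 52516067 to 52529867 of GRCm38, minus strand) encodes the founding enzyme of the family. In WT hearts its level was 10.5 CPM in the left ventricle, 13.3 in the remote zone, 41.2 in the border, and 159.5 in the infarct zone. In TKO hearts it was 3.67, 5.55, 19.4, and 96.6 CPM in the same order. The order was left ventricle, remote, border, and infarct zone in each genotype, both infarct zone libraries stood above the other 6, and the TKO library was the lower one in each region. The extremes, the TKO left ventricle and the WT infarct zone, lay 43.5-fold apart.

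**Figure D1:**
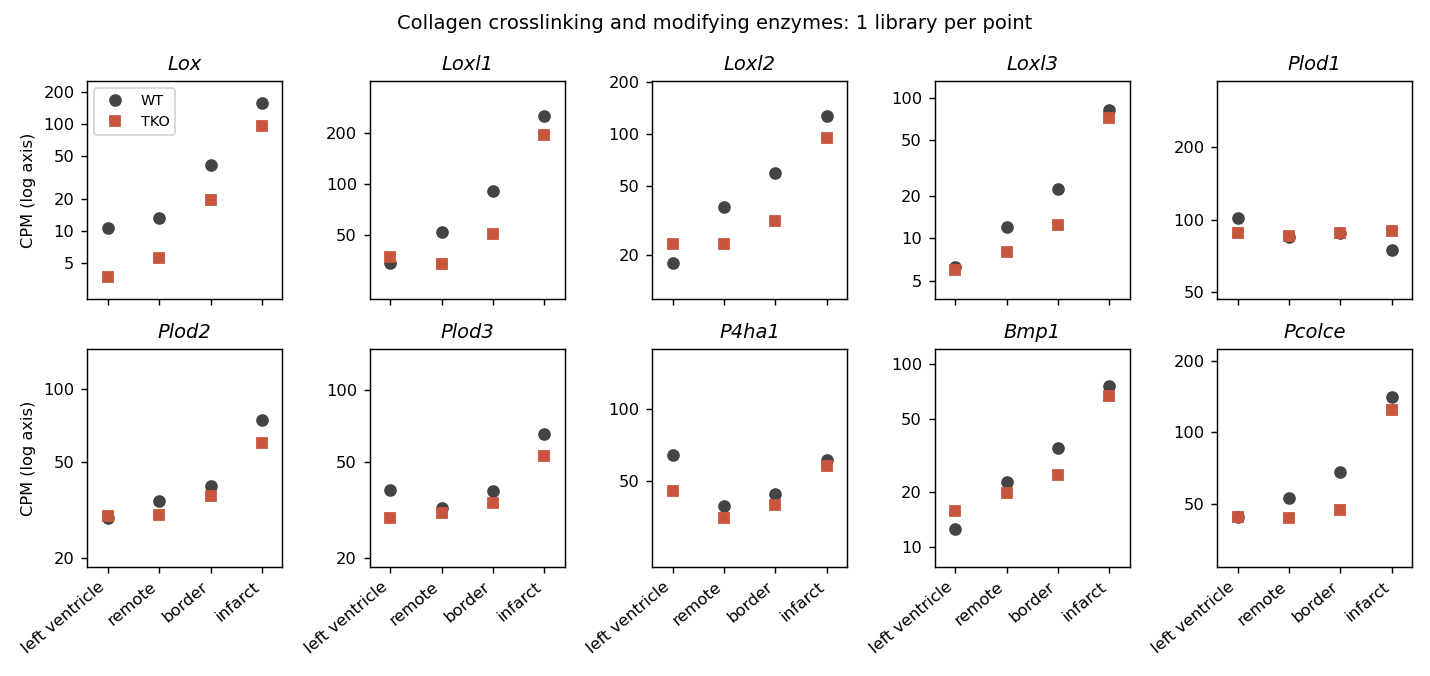
Level of each of the 10 genes (CPM after TMM scaling, log axis) by region, with 1 point per library, circles for WT and squares for TKO. Both infarct zone libraries lie above the other 6 for 8 genes, and *Plod1* and *P4ha1* are the exceptions.

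*Loxl1* (ENSMUSG00000032334, chromosome 9 from 58287738 to 58313186, minus strand) encodes the family member best known for elastic fibers. Its level in WT was 34.6 CPM in the left ventricle, 52.1 in the remote zone, 90.7 in the border, and 252.4 in the infarct zone. In TKO it was 37.2, 33.98, 51.0, and 193.4 CPM in that order. The TKO left ventricle and remote zone thus sat with the WT left ventricle at the low end, and the genotypes parted in the remote and border zones.

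*Loxl2* (ENSMUSG00000034205, chromosome 14 from 69609068 to 69695834, plus strand) encodes a secreted lysyl oxidase that acts on basement membrane and fibrillar collagen. Its WT levels were 17.99, 38.1, 59.4, and 126.6 CPM from left ventricle through remote and border to infarct zone, and its TKO levels were 23.1, 23.1, 31.4, and 95.6 CPM. The WT gradient began in the remote zone, whereas the TKO left ventricle and remote zone were alike. Of the 31-base words of its transcripts, 46.4% also occur in transcripts of other genes, most of them in the unprocessed pseudogene *Gm21451* on the same chromosome, which took 2.66% to 9.68% of the summed counts of the pair. With the pseudogene's counts added, the TKO over WT ratio in the border zone was 0.571 in place of 0.53, so *Loxl2* values carry that uncertainty.

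*Loxl3* (ENSMUSG00000000693, chromosome 6 from 83034173 to 83052562, plus strand) was the scarcest enzyme per transcript length in the WT left ventricle. Its WT levels were 6.24, 11.96, 22.2, and 82.1 CPM from left ventricle through remote and border to infarct zone, and its TKO levels were 5.95, 7.94, 12.5, and 71.4 CPM. The left ventricle libraries were the lowest and the infarct zone libraries the highest. It shares 9.84% of its 31-base words with *Htra2*, which overlaps it on the opposite strand, and since library strandedness is not given in the sources used here reads of the pair cannot be told apart there.

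Among the lysyl hydroxylases, *Plod2* and *Plod3* were highest in the infarct zone in each genotype. *Plod1* was lowest there in WT and, by a small margin, highest there in TKO. *Plod2* (ENSMUSG00000032374, chromosome 9 from 92542223 to 92608428, plus strand) hydroxylates telopeptide lysines, the step that leads to stable crosslinks. It was at 29.3, 34.4, 39.5, and 74.5 CPM in the WT left ventricle, remote, border, and infarct zone and at 29.7, 30.0, 35.9, and 60.03 CPM in TKO. *Plod3* (ENSMUSG00000004846, chromosome 5 from 136987019 to 136996648, plus strand), a lysyl hydroxylase that also carries glycosyltransferase activity, was at 38.3, 32.2, 38.1, and 65.8 CPM in WT and at 29.5, 30.9, 34.0, and 53.1 CPM in TKO. The infarct zone stood above the other regions for both, and the other WT regions lay between 32.2 and 38.3 CPM for *Plod3*. *Plod3* shares 12% of its 31-base words with other genes, chiefly *Znhit1* on the opposite strand, and *Plod2* shares 5.87%.

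*Plod1* (ENSMUSG00000019055, chromosome 4 from 147909753 to 147936767, minus strand), which hydroxylates lysines of the helix, was the flattest of the 10. Its level was 102.2, 84.98, 87.9, and 75.4 CPM in the WT left ventricle, remote, border, and infarct zone, and 88.5, 85.4, 87.95, and 90.3 CPM in TKO. Its highest and lowest libraries, the WT left ventricle and the WT infarct zone, differed 1.36-fold. *P4ha1* (ENSMUSG00000019916, chromosome 10 from 59323296 to 59373304, plus strand) was at 63.97, 39.3, 44.3, and 61.2 CPM in WT and at 45.7, 35.3, 39.7, and 57.7 CPM in TKO. For *P4ha1* the left ventricle and infarct zone were high and the remote and border zones low, and its highest library was the WT left ventricle.

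*Bmp1* and *Pcolce*, the processing pair, rose toward the infarct. *Bmp1* (ENSMUSG00000022098, chromosome 14 from 70474558 to 70520234, minus strand) was at 12.4, 22.4, 34.5, and 75.3 CPM in the WT left ventricle, remote, border, and infarct zone, and at 15.6, 19.8, 24.5, and 66.9 CPM in TKO. *Pcolce* (ENSMUSG00000029718, chromosome 5 from 137605103 to 137613784, minus strand) was at 44.1, 53.0, 68.1, and 140.9 CPM in WT and at 44.1, 43.3, 46.8, and 124.3 CPM in TKO. The left ventricle libraries of the genotypes were level for *Pcolce*, and the TKO remote and border zones stayed near them while the WT zones were above.

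Per kilobase of the longest coding transcript, *Plod1* (31.5 CPM per kb) and *Pcolce* (27.1) led the 10 genes in the WT left ventricle, and *Lox* (2.22) and *Loxl3* (1.52) were last. In the WT infarct zone the order per kilobase was led by *Pcolce* at 86.6 and *Loxl1* at 76.5 CPM per kb, with *Lox* next at 33.6 and *P4ha1* last at 15.2. The 4 lysyl oxidase genes together made up 15.3% of the summed level per kilobase of the 10 genes in the WT left ventricle, 23.4% in the remote zone, 32.1% in the border, and 45.3% in the infarct zone. In TKO these shares were 17.0%, 17.3%, 23.5%, and 40.3%. The remote zone share of TKO thus lay near that of the left ventricle libraries, and these shares rest on 1 library each.

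The question of the zone comparisons is where in the infarcted heart the enzymes differ from left ventricle tissue. With genotype as a term, so that the WT and TKO libraries of a region stand in for replicates, 8 of the 10 genes were higher in the infarct zone than in the left ventricle at an adjusted p under 0.05 (edgeR quasi-likelihood test, Benjamini-Hochberg adjustment over all genes), against 28.2% of all genes tested called higher. These p-values rest on how far the region differences varied between the genotypes, in 1 fit over all 8 libraries. They do not measure the spread between mice. *Lox* was 19.6-fold higher (log2 4.29 ± 0.20 SE, edgeR adjusted p = 0.000184), *Loxl3* 12.6-fold (3.65 ± 0.21, adjusted p = 0.000248), *Loxl1* 6.07-fold (2.60 ± 0.23, adjusted p = 0.000603), and *Loxl2* 5.22-fold (2.38 ± 0.29, adjusted p = 0.00143). *Bmp1* was 5.05-fold higher (edgeR adjusted p = 0.000474) and *Pcolce* 2.99-fold (adjusted p = 0.000675). *Plod2* was 2.27-fold higher (edgeR adjusted p = 0.00069) and *Plod3* 1.76-fold (adjusted p = 0.00178). *Plod1* had a log2 difference of -0.20 ± 0.13 (edgeR adjusted p = 0.229) and *P4ha1* of 0.13 ± 0.12 (adjusted p = 0.389). With library totals in place of TMM all 10 were called higher, beside 60.5% of all genes, *Plod1* with a log2 difference of 0.48 and *P4ha1* with 0.82, so for these genes the call, and for *Plod1* the direction, depended on the scaling. The median of the 10 differences was 1.96 on the log2 scale, beside 0.02 over all genes tested. Both infarct zone libraries lay above the other 6 for 8 genes, against 32.9% of all genes tested.

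Against the border zone, the infarct zone was higher for 9 of the 10 genes (21.6% of all genes tested were called higher). *P4ha1* joined the list at 1.42-fold (edgeR adjusted p = 0.0186), and *Plod1* had a log2 difference of -0.09 ± 0.13 (adjusted p = 0.618), which became 0.50 with library totals. *Loxl3* was 4.55-fold (edgeR adjusted p = 0.00245), *Lox* 4.43-fold (adjusted p = 0.00239), and *Loxl1* 3.22-fold higher (adjusted p = 0.00497).

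In the border zone 2 of the 10 genes were called higher than in the left ventricle, beside 0.669% of all genes tested. *Lox* was 4.42-fold higher (log2 2.15 ± 0.19, edgeR adjusted p = 0.03) and *Loxl3* 2.76-fold (1.47 ± 0.20, adjusted p = 0.0425). In a fit without the infarct zone libraries, chosen after seeing the data, *Lox* remained and *Loxl3* had an adjusted p of 0.0869 by the same edgeR test. DESeq2's Wald test called 5, beside 3.66% of all genes higher by that test, adding *Bmp1*, *Loxl2*, and *Loxl1*. By edgeR *Bmp1*, *Loxl2*, and *Loxl1* had log2 differences of 1.06, 1.06, and 0.92 with adjusted p = 0.0708, 0.154, and 0.125.

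None of the 10 genes was called in the remote zone against the left ventricle by edgeR or DESeq2. Over all genes edgeR called 0%, and DESeq2 called 127 higher and 35 lower. At an unadjusted edgeR p under 0.05, 2 were higher and 1 lower, beside 10.6% of all genes in either direction. These were *Loxl3* with a log2 difference of 0.68 ± 0.20, *Bmp1* with 0.58 ± 0.19, and *P4ha1* with -0.54 ± 0.12, whose edgeR adjusted p was 0.294. Between border and remote zone edgeR called none (0% of all genes), DESeq2 called *Lox*, and 4 of the 10 were higher at an unadjusted edgeR p under 0.05, beside 2.84% of all genes. Over all genes DESeq2 called 44 higher and 15 lower there. *Lox* was 3.27-fold higher in the border than in the remote zone (log2 1.71 ± 0.19, edgeR adjusted p = 0.188), and its level was higher in the border zone in both genotypes.

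**Figure D2:**
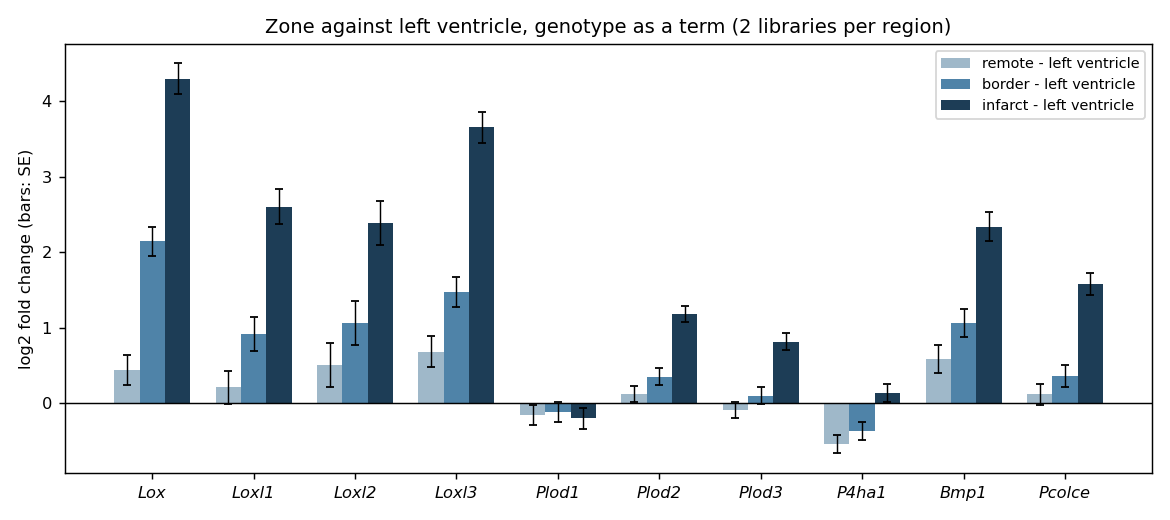
Log2 difference of the remote, border, and infarct zones from the left ventricle for the 10 genes, from the fit with genotype as a term, with bars of 1 SE. The infarct zone bars reach 4.29 for *Lox* and 3.65 for *Loxl3*, and those of *Plod1* and *P4ha1* stay near 0.

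Within each genotype the gradient can be given as a ratio of 1 library to another, with a 95% exact binomial (Clopper-Pearson) interval that covers counting error only and no test. The infarct zone was at least 2-fold above the left ventricle for 7 of the 10 in WT (18.8% of all genes) and for 7 in TKO (16.2% of all genes). For *Lox* the ratio was 15.2 in WT (13.5 to 17.1) and 26.3 in TKO (21.5 to 32.7), the larger ratio in TKO going with its low left ventricle library of 95 counts. For *Loxl2* it was 7.04 in WT (6.41 to 7.73) and 4.13 in TKO (3.79 to 4.52). In the border zone 5 genes were at least 2-fold above the left ventricle in WT (5.39% of all genes) and 2 in TKO (4.38%). The border zone ratio of *Loxl1* was 2.63 in WT (2.44 to 2.83) against 1.37 in TKO (1.26 to 1.49), that of *Loxl2* 3.3 (2.99 to 3.65) against 1.36 (1.23 to 1.51), and that of *Bmp1* 2.78 (2.46 to 3.15) against 1.58 (1.39 to 1.78). *Pcolce* had a ratio of 1.54 in WT (1.44 to 1.66), whereas the interval of its TKO ratio of 1.06 (0.982 to 1.15) held 1. In the remote zone 1 gene, *Loxl2*, was at least 2-fold higher in WT (2.12-fold, 3.4% of all genes passing), and in TKO 0 were (3.06% of all genes).

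The genotype comparison asks whether hearts without TIGAR carry different levels of these transcripts. No gene of the 10 was called between genotypes over the 4 regions (0.138% of all genes were called in either direction by edgeR). At an unadjusted edgeR p under 0.05, 6 were lower in TKO, beside 8.79% of all genes lower. That count was 1 without the border zone, 2 without the remote zone, 3 without the infarct zone, 7 without the left ventricle, and 0 in a fit without the region term. Over all genes, those at that level in either direction went from 2109 to 1069, 1656, 1153, 3245, and 143 in the same order. *Lox* had the largest difference of the 10, 0.464-fold in TKO (log2 -1.11 ± 0.13, edgeR adjusted p = 0.0634), and was lower in 4 of 4 regions. It was called with library totals, with a filter of at least 10 counts in every library (edgeR adjusted p = 0.0493), with DESeq2's Wald test, and without the left ventricle (edgeR adjusted p = 0.0438). Over all genes, 10 were called higher and 8 lower in the main fit. These became 12 and 44 with library totals and 7 and 10 with that filter. They became 128 and 214 with DESeq2's test and 20 and 60 without the left ventricle. The other enzymes at an unadjusted edgeR p under 0.05 were *Loxl1* (log2 -0.43), *Loxl3* (-0.43), *Pcolce* (-0.25), *Plod3* (-0.23), and *P4ha1* (-0.22), with edgeR adjusted p between 0.236 and 0.294. *Loxl2* (-0.43), *Plod2* (-0.16), *Bmp1* (-0.14), and *Plod1* (0.02) did not reach that level. The median of the 10 differences was -0.24 on the log2 scale, beside -0.002 over all genes tested. With library totals these became -0.35 and -0.11. The test treats regions as replicates, so it bears on regions and not on mice.

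Region by region, 33 of the 40 pairs of gene and region were lower in TKO, beside 50% of such pairs over all genes. The counting interval lay below 1 in 30 and above 1 in 3, beside 24.8% and 25.9% of pairs over all genes. In all 4 regions 5 of the 10 genes were lower (*Lox*, *Loxl3*, *Plod3*, *P4ha1*, and *Pcolce*), against 13.5% of all genes tested. For *Pcolce* this rests on a left ventricle ratio of 0.999, which became 1.001 with DESeq2 size factors. At least 2-fold lower was 1 gene in the left ventricle (3.56% of all genes), 1 in the remote zone (2.36%), 1 in the border (3.25%), and 0 in the infarct zone (1.45%), and in each case that gene was *Lox*.

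For *Lox* the TKO library was at 0.349 of WT (0.274 to 0.442) in the left ventricle, at 0.418 (0.347 to 0.502) in the remote, at 0.47 (0.425 to 0.519) in the border, and at 0.606 (0.581 to 0.631) in the infarct zone. The intervals of the left ventricle and infarct zone did not overlap. With library totals the infarct zone ratio of *Lox* was 0.494, outside its counting interval. In the border zone *Loxl2* was at 0.53 (0.489 to 0.574), *Loxl3* at 0.561 (0.493 to 0.638), and *Loxl1* at 0.562 (0.528 to 0.599), so that the 4 lysyl oxidases lay close together there. *Pcolce* was at 0.688 (0.642 to 0.737) and *Bmp1* at 0.71 (0.645 to 0.781) in the border zone, and *Plod2*, *Plod3*, and *P4ha1* between 0.892 and 0.909. For *Plod1* the border zone interval of 0.948 to 1.06 held 1.

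In the left ventricle the picture differed by gene. *Loxl2* was at 1.29 (1.14 to 1.45) and *Bmp1* at 1.25 (1.08 to 1.45), above 1, while *P4ha1* was at 0.714 (0.663 to 0.769) and *Plod3* at 0.77 (0.7 to 0.846). *Pcolce*, *Plod2*, *Loxl1*, and *Loxl3* had intervals that held 1. In the infarct zone *Plod1* was at 1.2 (1.14 to 1.26), the only one of the 10 above 1, and 0.977 with library totals, so its direction there depended on the scaling. The other genes lay between 0.606 and 0.941 in the infarct zone. With library totals these ratios lay between 0.494 and 0.768, each outside its counting interval. The median ratio of all genes there became 0.82 with library totals.

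**Figure D3:**
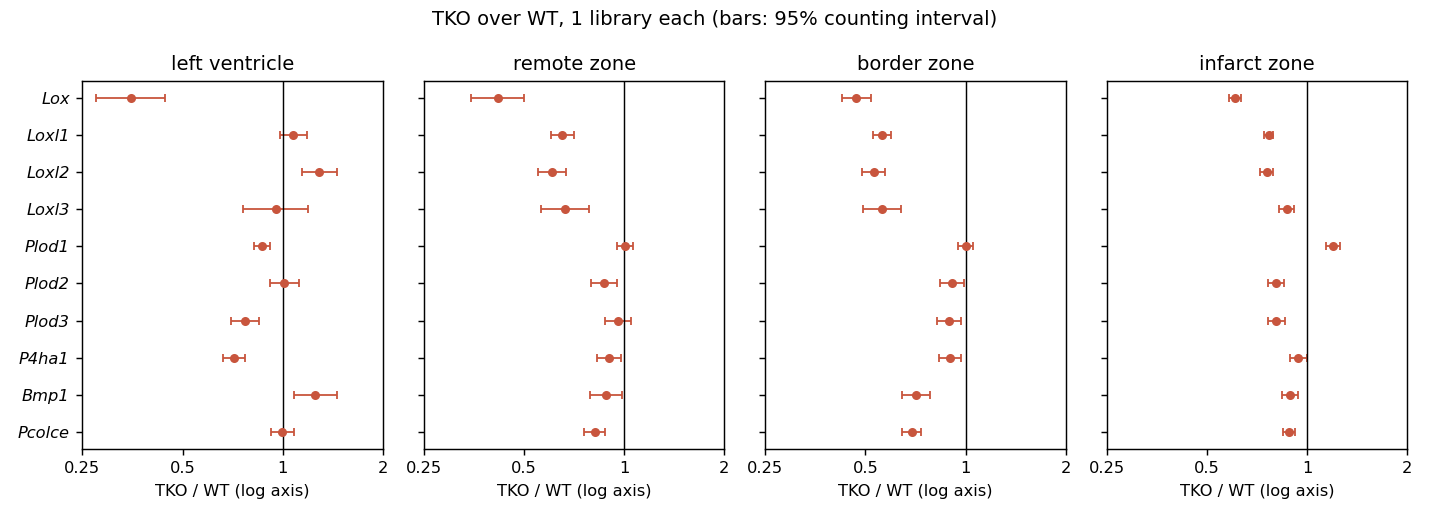
TKO over WT ratio of each gene in each region (log axis), with 1 library per genotype and bars for the 95% counting interval. *Lox* lies left of 1 in each panel, from 0.349 to 0.606, and the lysyl oxidases cluster between 0.47 and 0.562 in the border zone.

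Whether the genotype difference of 1 region departed from that of the others was tested with an interaction term, a test that rests on just 1 library per genotype in the region concerned. No gene of the 10 was called by edgeR or DESeq2 for any region. By edgeR the share of all genes called was 0.646% (left ventricle), 0% (remote zone), 0% (border zone), and 0.00769% (infarct zone). DESeq2 called 104 genes higher and 176 lower for the left ventricle, and 288 higher and 0 lower for the infarct zone. For the remote zone it called 2 higher and 10 lower, and for the border zone 5 higher and 2 lower. At an unadjusted edgeR p under 0.05 there were 4 of the 10 for the left ventricle (16.8% of all genes), 0 for the remote zone (1.72%), 0 for the border zone (1.51%), and 1 for the infarct zone (7.83%). For the left ventricle these were *Loxl2* (log2 1.04 ± 0.23, edgeR adjusted p = 0.126), *Loxl1* (0.71 ± 0.21), *Bmp1* (0.61 ± 0.19), and *P4ha1* (-0.35 ± 0.13), the first 3 being relatively higher in TKO there than in the zones. For the infarct zone it was *Lox* (0.54 ± 0.20, edgeR adjusted p = 0.593). With library totals 1 gene was called for the left ventricle, beside 143 genes called higher and 132 lower over all genes.

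Markers of cell types are set beside these values, and their TKO over WT ratios differed by cell type and by region. The summed level of 6 activated fibroblast markers (*Postn*, *Acta2*, *Cthrc1*, *Fn1*, *Cilp*, *Comp*) was 220.3, 444.2, 958.5, and 2799 CPM in the WT left ventricle, remote, border, and infarct zone, and 181.3, 242.1, 442.2, and 2134 CPM in TKO. Its TKO over WT ratio was 0.823, 0.545, 0.461, and 0.762 in that order, with 6, 5, 4, and 5 of the 6 markers lower in TKO. The 7 fibroblast markers (*Pdgfra*, *Dcn*, *Lum*, *Dpt*, *Tcf21*, *Gsn*, *Mfap5*) summed to 1678 to 2277 CPM outside the infarct zone and to 5775 and 5234 CPM in the WT and TKO infarct zone. Their ratios were 0.989, 0.89, 0.882, and 0.906, with 2, 7, 6, and 7 of the 7 lower in TKO. The 8 cardiomyocyte markers summed to 39355 CPM in the WT left ventricle and 9220 in the WT infarct zone, and to 41157 and 18933 in TKO, so that the TKO infarct zone held 2.05 times the WT level. The 6 macrophage markers had ratios of 0.816, 0.768, 0.832, and 0.759, with 5, 6, 6, and 6 of them lower in TKO. The 5 leukocyte markers (*Ptprc*, *Cd52*, *Laptm5*, *Cd3e*, *Cd79a*) had ratios of 0.683, 0.668, 0.632, and 0.628, with 4, 4, 5, and 5 of them lower in TKO. The 4 epicardial markers (*Upk3b*, *Msln*, *Wt1*, *Krt19*) had ratios of 0.498, 0.59, 0.758, and 0.675, with 2, 4, 2, and 4 of them lower in TKO. *Msln* was at 0 in 4 libraries. The 5 endothelial and 5 mural cell markers had ratios of 0.895 to 1.21. Of the endothelial markers 1, 2, 5, and 0 were lower in TKO in the left ventricle, remote, border, and infarct zone. Of the mural cell markers 3, 4, 3, and 4 were lower in the same order. Among all markers given so far *Msln* was the one at 0 in any library. In bulk tissue, fewer cells of a type and less RNA per cell cannot be told apart, and the part of cell makeup in the enzyme differences was not tested. The WT left ventricle library also held 28.9 CPM of 3 adipocyte markers, beside 0.463 to 5.70 CPM in the other 7 libraries, and the part of this in the left ventricle ratios was not tested.

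The enzymes were next set against their substrate. *Col1a1*, *Col1a2*, and *Col3a1*, the main fibrillar collagens, summed to 325.4, 628.5, 1606, and 5157 CPM in the WT left ventricle, remote, border, and infarct zone and to 361.1, 358.8, 779.5, and 4174 CPM in TKO. The TKO border zone held less than the WT border zone for *Col1a1* (ratio 0.559, 0.54 to 0.578), *Col1a2* (0.545, 0.53 to 0.56), and *Col3a1* (0.423, 0.414 to 0.433). Counts of an enzyme per 1000 counts of these collagens do not depend on library scaling.

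Per collagen count, all 10 enzymes were lower in the infarct zone than in the left ventricle in WT and 8 in TKO, but so were 98.6% and 98.2% of all genes tested, so these counts are no feature of the enzymes. *Lox* was at 32.3 per 1000 collagen counts in WT left ventricle and 21.1, 25.6, and 30.9 in the WT remote, border, and infarct zone. In TKO it was at 10.2, 15.5, 24.8, and 23.2 per 1000 in that order. The TKO left ventricle was the lowest of the 8, and the border zone libraries of the genotypes were nearly level. *Loxl3* stayed between 13.8 and 22.1 per 1000 in all 8 libraries. *Plod1* went from 314 per 1000 in the WT left ventricle to 14.6 in the WT infarct zone, and *P4ha1* from 197 to 11.9.

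Between genotypes, 2 of the 10 enzymes were higher per collagen count in TKO in the left ventricle (30.8% of all genes), 9 in the remote zone (96%), 9 in the border (96.8%), and 5 in the infarct zone (81.3%). *Lox* was the gene below 1 in remote (0.732) and border (0.968) tissue. Per collagen count *Loxl1* was at 0.971, 1.14, 1.16, and 0.947 of WT in the left ventricle, remote, border, and infarct zone, and *Loxl2* at 1.16, 1.06, 1.09, and 0.933, so per collagen count both lay within 0.933 to 1.16, and their levels had been as low as 0.53 of WT. Per count of the 7 fibroblast markers, in contrast, *Loxl1* was at 0.637 and *Loxl2* at 0.601 of WT in the border zone. *Plod1* was at 2.06 of WT in the border zone per collagen count and at 1.13 per fibroblast marker count.

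**Figure D4:**
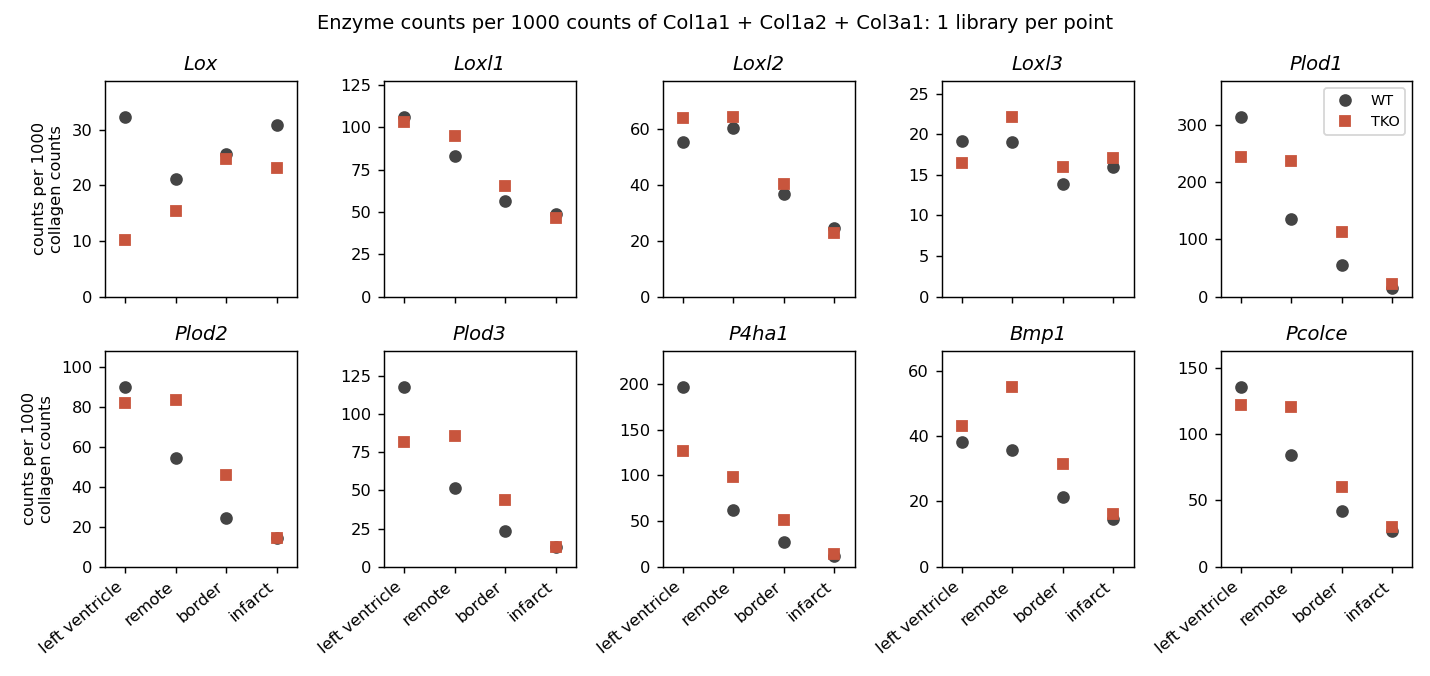
Counts of each enzyme per 1000 summed counts of *Col1a1*, *Col1a2*, and *Col3a1* by region, with 1 point per library, circles for WT and squares for TKO. *Lox* lies between 21.1 and 32.3 in WT and at 10.2 in the TKO left ventricle, and *Plod1* goes from 314 to 14.6 in WT.

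Other genes of collagen biosynthesis numbered 25, of which 24 were tested (*Tll2* did not reach the minimum level). Called higher in the infarct zone than in left ventricle were 14 (28.2% of all genes) and called lower 2 (3715 of all 12999 genes). The median log2 difference was 0.81 beside 0.02 over all genes. The largest rises were *P4ha3*, another prolyl 4-hydroxylase α subunit, at 34.2-fold (edgeR adjusted p = 0.000358), *Adamts2*, the procollagen N-proteinase, at 10.4-fold (adjusted p = 0.000184), *P3h3*, of the prolyl 3-hydroxylase family, at 5.64-fold (adjusted p = 0.000315), and *Pcolce2*, the second C-proteinase enhancer, at 4.08-fold (adjusted p = 0.000373). The lower genes were *P4ha2*, a further α subunit, at 0.721-fold (edgeR adjusted p = 0.0126) and *Tmem38b*, an endoplasmic reticulum cation channel, at 0.822-fold (adjusted p = 0.0385). Both directions depended on the scaling. With library totals 23 of the 24 were called higher, beside 60.5% of all genes, and 0 lower. The log2 differences were then 0.21 ± 0.12 for *P4ha2* (edgeR adjusted p = 0.152) and 0.40 ± 0.13 for *Tmem38b* (adjusted p = 0.0208). *P4ha3* rested on few counts in the left ventricle, 10 in WT and 6 in TKO, against 513 and 280 in the infarct zone. Of the 24, 2 were higher (0.669% of all genes) and 0 lower in border zone tissue. Between infarct and border zone 14 were higher (21.6% of all genes) and 0 lower. In the remote zone against the left ventricle and between border and remote zone edgeR called 0 of the 24 (0% of all genes). At an unadjusted edgeR p under 0.05 there were 7 and 3, beside 10.6% of all genes and 497 of 12999 in either direction.

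Between genotypes 0 of the 24 were called (0.138% of all genes). At an unadjusted edgeR p under 0.05, 5 were lower, beside 8.79% of all genes, and 1 was higher. The median log2 difference was -0.11. The smallest p-values were those of *Adamts2* (log2 -0.45 ± 0.10, edgeR adjusted p = 0.191) and *P4ha3* (-1.04 ± 0.24, adjusted p = 0.191), both lower in TKO in 4 of 4 regions. In the border zone the TKO over WT ratio was 0.591 for *Adamts2* (0.55 to 0.635) and 0.326 for *P4ha3* (0.212 to 0.489, on 32 and 102 counts). Of the 7 fibrillar collagen and elastic fiber genes listed (*Col1a1*, *Col1a2*, *Col3a1*, *Col5a1*, *Col5a2*, *Eln*, *Fbln5*), 7 were higher in the infarct zone than in the left ventricle, 2 in the border zone, and 0 were called between genotypes, with 5 lower in TKO at an unadjusted edgeR p under 0.05. The shares of all genes for these 4 counts were 28.2%, 0.669%, 0.138%, and 8.79%.

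**Figure D5:**
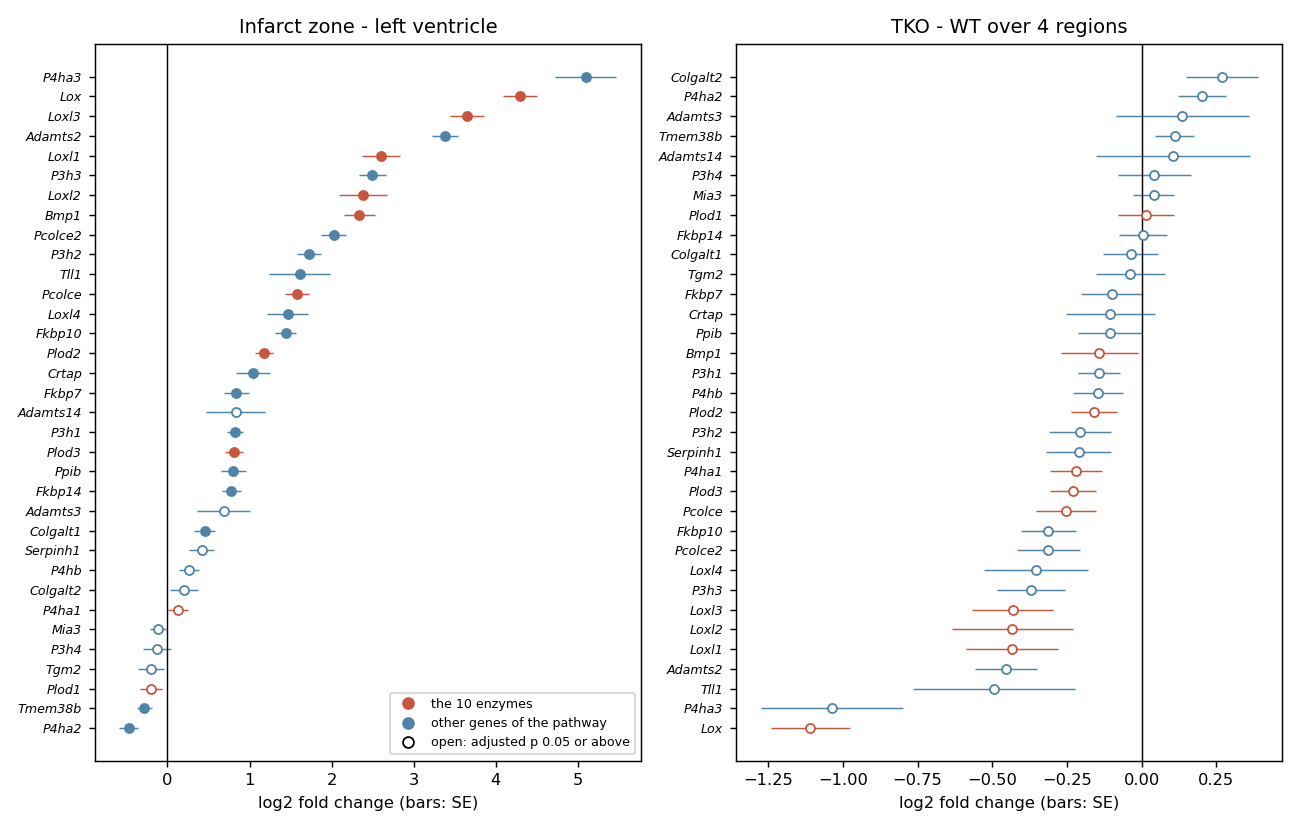
Log2 difference with bars of 1 SE for the 10 enzymes and 24 other genes of collagen biosynthesis, ordered by size, for the infarct zone against the left ventricle (left) and TKO against WT over 4 regions (right). Filled points have an edgeR adjusted p under 0.05. *P4ha3* and *Lox* are at the top on the left and at the bottom on the right, where no point is filled.

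As a description over 8 libraries that share the infarct to left ventricle gradient, the genes whose log2 level followed each enzyme most closely were sought among all whose mean reached 10 CPM. *Loxl1* went with *Sparc* (Pearson r = 0.997), *Eln* (0.996), and *Tgfb3* (0.996), and *Loxl2* with *Col8a1* (0.998), *Dbn1* (0.996), and *Emp1* (0.996). *Loxl3* went with *Pdgfrl* (0.997) and *Eln* (0.997). *Lox* was closest to *Pip4k2a* (0.987), *Rufy2* (0.985), and *Kirrel* (0.984). *Plod2* went with *Igfbp4* (0.999), *Nedd9* (0.998), and *Tns3* (0.997), and *Plod3* with *Il6st* (0.998), *Ap2b1* (0.995), and *Ifngr1* (0.99). *Bmp1* went with *Abi3bp* (0.996), *Mmp23* (0.994), and *Eps15* (0.993), and *Pcolce* with *Gpm6b* (0.998), *Adamtsl3* (0.997), and *Scn7a* (0.995). *Plod1* (*Wrnip1* 0.958, *Exd2* 0.946, *Tmem185a* 0.934) and *P4ha1* (*Nucb1* 0.955, *Pdia4* 0.941, *Slc35a2* 0.928) had looser partners. Among the 45 pairs of the 10 enzymes r ranged from -0.62 to 0.99 with a median of 0.929.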

How the data were processed

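Total RNA of 8 libraries, 1 per genotype and region, was sequenced. Per the labels and the study's methods, the authors trimmed reads with Trim Galore 0.6.5, quantified transcripts with kallisto 0.46 against the mm10 transcriptome, and aggregated the transcripts into genes with tximport. What the authors deposited is a whole-number estimated count per gene and library, not normalized. Such counts split reads shared between transcripts, so genes with shared sequence are uncertain. Library strandedness is not given in the sources used here.

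TMM factors, CPM, and tests were computed with edgeR 4.0.16 in R 4.3.3 (quasi-likelihood test, model of region plus genotype, Benjamini-Hochberg adjustment over the 12999 genes whose mean CPM reached 1, threshold 0.05). DESeq2 1.42.0 served as an alternative. The edgeR fit was tested on simulated data with known genotype changes, for the genotype contrast only. The zone contrasts, the interaction fits, and DESeq2 were not tested in that way. Ratios of 2 libraries have Clopper-Pearson intervals at 95%, which cover counting error only, and 2-fold calls used a prior count of 2. Positions and transcript lengths came from the GRCm38 annotation. The correlations used log2(CPM + 0.1). Figures were made with matplotlib 3.10.9 in Python 3.11.15.

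The members and lists were chosen with earlier results of these data known. Named were the 10 members, *Tigar*, 3 collagens, up to 4 called genes per direction of the biosynthesis list (if none, the 2 with the smallest p), and the 3 genes most like each member, of which 1 is not reported here. Marker genes were named beside the enzyme values, *Loxl4* beside the other lysyl oxidases, and the elastic fiber genes as the members of their list. The alternatives were library totals, DESeq2 size factors, mitochondrial genes left out, other filters, DESeq2's test, regions left out, no region block, other prior counts, and other denominators.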

Additional observations from a re-analysis of the deposited data

How the results depend on the processing

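Each comparison rests on 1 library per genotype and region, so that no value bears on the spread between mice. The labels carry no replicate numbers, and the genotype fit pairs WT and TKO libraries by region. DESeq2 size factors, mitochondrial genes left out, no filter, no region block, and no prior count kept the counts of the 10 enzymes called at an adjusted p or at 2-fold within 1.5 times their values. Without the region term the 6 enzymes lower in TKO at an unadjusted p under 0.05 became 0, and with a region left out in turn they ranged from 1 to 7. Over all genes the number at that level, in either direction, went from 2109 to 143 without the region term. With a region left out in turn it ranged from 1069 to 3245.

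Between genotypes the count of 0 became 1 (*Lox*) with library totals, with at least 10 counts in every library, and with DESeq2's Wald test, and ranged from 0 to 1 when each region was left out in turn, the 1 being without the left ventricle. In the border zone against the left ventricle the count of 2 became 5 with DESeq2's Wald test and 1 without the infarct zone libraries. Between border and remote zone the count of 0 became 1 with library totals and with DESeq2. With library totals the left ventricle interaction count went from 0 to 1, and the genes at least 2-fold lower in TKO became 2 in the border and 1 in the infarct zone. *Plod1* turned direction with library totals between genotypes (-0.088), in the infarct zone against the left ventricle (0.48) and against the border zone (0.50), and its genotype difference ranged from -0.076 without the infarct zone to 0.092 without the left ventricle (all log2). Among other biosynthesis genes, *P4ha2* (0.21) and *Tmem38b* (0.40) turned from lower to higher in the infarct zone with library totals. The cause was not tested.

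Per fibroblast marker count in place of collagen count, 5 enzymes were lower in the infarct zone than in the left ventricle in WT and 5 in TKO (90.5% and 91% of all genes), and 5, 3, 4, and 2 were higher in TKO in the left ventricle, remote, border, and infarct zone (53.5%, 73.9%, 73%, and 66.9% of all genes). Per *Col1a1* alone 6 were higher in TKO in the left ventricle (65.1% of all genes).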
